A study of Mus musculus with 8 samples.

Results

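miR-191 and miR-425 are a pair of microRNAs encoded 384 bases apart, and their levels were followed across 4 groups of mouse macrophages. They were taken by name, with any arm, from the deposited tables and make up 2 of the 482 miRNA numbers listed in either table. miR-191 was listed in the first table with both arms and had no row used here from the second. miR-425 was listed in both. The cells were bone marrow-derived macrophages grown for 3 days with M-CSF (a supernatant equivalent to 20 ng/ml), from mice of a mixed C57BL/6/129 background that was over 90% C57BL/6. Wild-type mice were compared with Rbpj f/f; LysM Cre mice, in which Cre from a myeloid gene removes RBP-J, the DNA-binding protein of Notch signalling. Each genotype was left without stimulation or treated with the cytokine TNF for 24 hours. The labels do not say whether the wild-type mice carried Cre, and deletion of Rbpj, a protein-coding gene, is not visible in small RNA. The series examined which miRNAs TNF induces and which of them RBP-J regulates.

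Each group had 2 libraries, 1 in a table of CPM (reads scaled to a total) and 1 in a table whose unit, inferred from its values, is RPKM, which also divides by the length of the hairpin. The totals were 321327 to 848650 reads for CPM libraries and about 13574347 to 21712226 for RPKM libraries. These totals differ in kind. Listed miRNAs made up 321254 of 321327 reads in unstimulated wild type by CPM. By RPKM they made up about 10851747 of 21712226 in that group and 12701528 of 19340573 in wild type with TNF. Intervals below are exact 95% intervals for counting error alone, and PCR reads without molecular identifiers are not independent molecules. In the CPM table, unstimulated wild type stood apart. Log2 ratios of that library to the mean of the rest had an SD of 1.35 over the 116 miRNAs averaging 100 CPM or more, against 0.779 to 0.938 for the other libraries. Median-of-ratios factors, which centre each library on a typical miRNA, were 1.35 for that library and 0.804 to 1.08 for the rest of its table. The labels do not say that replicates came from separate animals or cultures.

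A miRNA gene is transcribed as part of a longer RNA, from which a hairpin is cut and then trimmed to a duplex of its 5p and 3p arms. One arm is usually kept in the silencing complex, where its seed, bases 2 to 8, pairs with target messages. Neighbouring hairpins such as these can be cut from the same transcript. miR-191 is abundant in many blood and cancer cells and, with miR-425, is often used as a reference small RNA in PCR. In mouse erythroblasts miR-191 restrains enucleation. In human cells miR-425 was reported to be induced through NF-kB, the factor that TNF also activates.

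The hairpins are shown because the tables differ in what they count: the CPM table lists each mature arm and the RPKM table the whole hairpin. Sequences are RefSeq's for GRCm38.p6, and the mature arms are in capitals.
Mir191: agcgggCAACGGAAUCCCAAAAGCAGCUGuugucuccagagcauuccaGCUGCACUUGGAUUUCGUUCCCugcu
Mir425: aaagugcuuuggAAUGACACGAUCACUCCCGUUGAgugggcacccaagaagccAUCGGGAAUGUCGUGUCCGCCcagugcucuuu

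The 4 mature arms follow with the seed in capitals, since the seed decides which messages an arm can pair with.
miR-191-5p: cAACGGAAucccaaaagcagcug
miR-191-3p: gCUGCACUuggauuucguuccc
miR-425-5p: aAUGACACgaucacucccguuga
miR-425-3p: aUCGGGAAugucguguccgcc
The 4 seeds differ from each other. Among the mature mouse miRNAs of the same RefSeq table, only miR-489-3p shares one of them, that of miR-425-5p. miR-489 was not listed in the CPM table and had 7.32, 3.87, 1.26 and 2.07 RPKM in unstimulated wild type, wild type with TNF, the unstimulated knockout and the knockout with TNF, far below miR-425.

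Both hairpins lie on the plus strand of chromosome 9 of GRCm38, Mir191 (ENSMUSG00000105497) at 108568319 to 108568392 and Mir425 (ENSMUSG00000065579) at 108568777 to 108568861. GENCODE M21 places both in an exon of transcript 201 of the lincRNA 4833445I07Rik, at 108567533 to 108569174. Mir191 also lies in an intron of its transcript 202. The protein-coding gene Dalrd3 starts downstream, at 108569886 on the same strand. A further annotated miRNA gene, Gm24083, covers Mir191 on the opposite strand, and whether counting used the strand is not given in the sources used here.

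miR-191 was one of the main miRNAs of these cells. It had 83277 CPM (82282 to 84280) in unstimulated wild type, 87541 CPM (86770 to 88318) in wild type with TNF, 67430 CPM (66576 to 68292) in the unstimulated knockout and 120496 CPM (119759 to 121237) in the knockout with TNF. The knockout with TNF was thus highest and the unstimulated knockout lowest, and no intervals overlapped. In reads these were 26759, 49226, 23812 and 102259. miR-191 took 12.0% of miRNA reads in the knockout with TNF, where it ranked 1 of 329 miRNAs. It took 6.74% to 8.75% in the other libraries, where it ranked 3 to 5.

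With 1 library per group, ratios of miR-191 have no replicate check and no test. TNF went with a small difference in wild type, a ratio of 1.05 (1.04 to 1.07), and a larger one in the knockout, 1.79 (1.76 to 1.81). These are log2 ratios of 0.07 and 0.84, when the medians over the 116 miRNAs were -0.29 and -0.41. Of those 116, 34.5% were higher with TNF in wild type and 26.7% in the knockout, and miR-191 was above 71.6% and 89.7% of them. Median-of-ratios scaling raised the log2 ratios to 0.74 and 1.26.

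The knockout had less miR-191 than wild type without stimulation, a ratio of 0.81 (0.796 to 0.824), and more with TNF, 1.38 (1.36 to 1.39). The log2 ratios were -0.30 and 0.46. Of the 116 miRNAs 52.6% were lower in the unstimulated knockout, and 47.4% higher in the knockout with TNF. The first turned to 0.03 with median-of-ratios scaling and to 0.10 with TMM, another scaling to a typical miRNA, and it rests on the library that stood apart. The second, which does not use that library, stayed at 0.55 and 0.49.

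**Figure D1:**
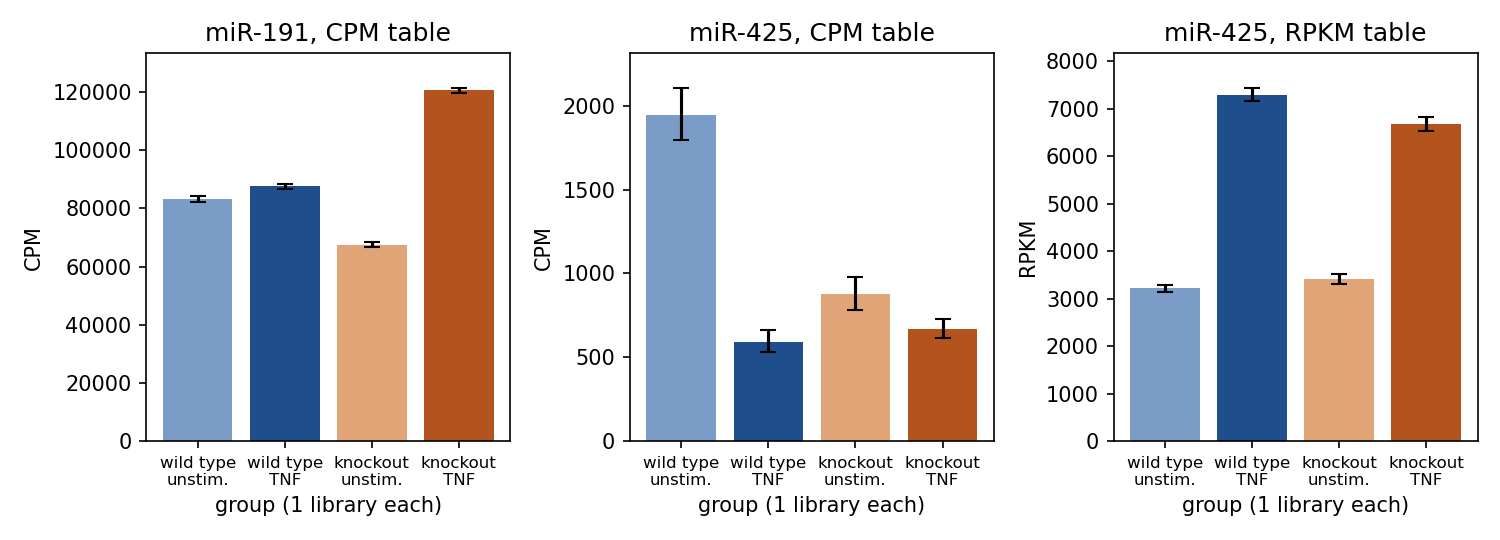
Level of miR-191 in CPM and of miR-425 in CPM and RPKM in each group; bars are single libraries and error bars exact 95% counting intervals. miR-191 was highest in the knockout with TNF (120496 CPM), whereas miR-425 was highest in unstimulated wild type in the CPM table (1945 CPM) and in wild type with TNF in the RPKM table (7298 RPKM).

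miR-425 was far below miR-191 in the CPM table, where it ranked 51 to 68 of 329 miRNAs. By RPKM it ranked 51 to 57 of 350. miR-425 had opposite TNF differences in the tables. In the CPM table it had 1945 CPM (1796 to 2104) in unstimulated wild type and 594 CPM (532 to 661) with TNF, and 875 CPM (780 to 978) in the unstimulated knockout and 668 CPM (614 to 725) with TNF. These rest on 625, 334, 309 and 567 reads. The unstimulated wild-type library was highest, and the libraries with TNF had overlapping intervals.

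In the RPKM table the order turned round. miR-425 had 3215 RPKM (3134 to 3298) in unstimulated wild type and 7298 RPKM (7168 to 7430) with TNF, and 3414 RPKM (3313 to 3518) in the unstimulated knockout and 6685 RPKM (6536 to 6836) with TNF. These values correspond to about 5934, 11998, 4322 and 7713 reads. Both libraries with TNF lay above both without, and within a treatment the genotypes differed by a ratio of 1.06 (1.02 to 1.1) without TNF and 0.916 (0.89 to 0.943) with it.

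Within the tables, the log2 ratio for TNF in wild type was -1.71 by CPM, where 30.2% of the 116 miRNAs were at least 2-fold lower, and 1.18 by RPKM, where 11.7% of 154 were at least 2-fold higher. In the knockout it was -0.39 and 0.97. Being lower in the CPM table and higher in the RPKM table was common: 52.7% of the 184 miRNAs tested did so for TNF in wild type and 47.3% in the knockout. Unit and library set changed together between the tables and cannot be told apart. Relative to the median of miRNAs averaging 100 or more in each table, miR-425 stood 1.42 below in the CPM table (log2 ratio minus median -1.42) and 0.74 above in the RPKM table for TNF in wild type. For the knockout these differences were 0.02 and 0.68. With median-of-ratios scaling the wild-type values were -1.04 and 0.78 and the knockout values 0.03 and 0.76, so the CPM value for the knockout changed sign. Rescaling each RPKM library to the sum of its listed miRNAs left 0.78 in wild type and 0.69 in the knockout.

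**Figure D2:**
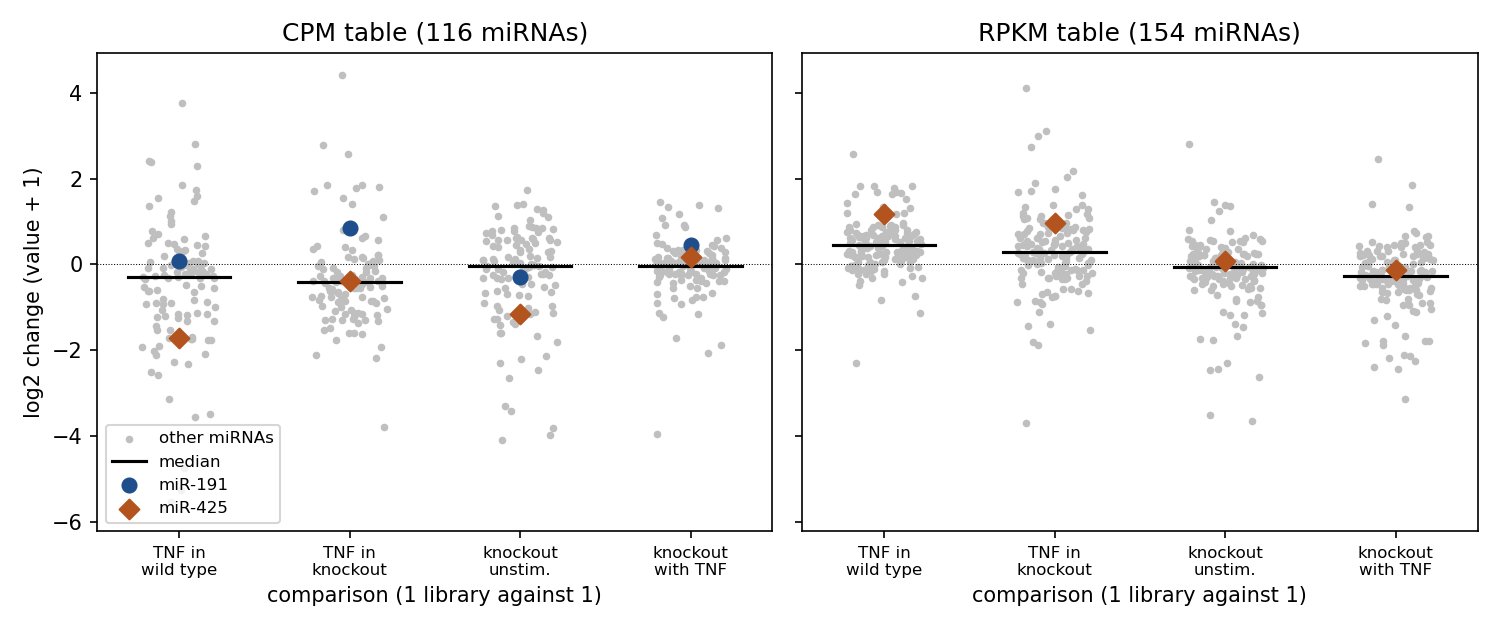
Log2 change of each miRNA averaging 100 or more in the CPM table (116 miRNAs) and the RPKM table (154 miRNAs) in 4 comparisons of 1 library with another; grey points are other miRNAs, black lines medians, blue circles miR-191 and orange diamonds miR-425. For TNF in wild type miR-425 lay at -1.71 (CPM) and 1.18 (RPKM), on opposite sides of the medians.

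Across both tables miR-425 passed in none of the 7 comparisons fitted. With the table as a block and values taken as log2(value + 1), limma gave a fold change of -0.26 ± 0.68 (SE, 2 tables) for TNF in wild type (adjusted p = 0.958). It gave 0.29 ± 0.68 for TNF in the knockout (limma adjusted p = 0.99) and 0.01 ± 0.48 for TNF averaged over genotypes (limma adjusted p = 0.995). The SE exceeded the fold change in each, and within each TNF comparison the tables had opposite signs.

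The knockout comparisons of miR-425 likewise lay within the spread between the tables. The log2 fold change was -0.53 ± 0.68 without stimulation (limma adjusted p = 0.907), with -1.15 in the CPM table, which uses the library that stood apart, and 0.09 by RPKM, a pair of signs that 21.7% of the 184 shared; by CPM 21.6% of 116 were at least 2-fold lower. With TNF it was 0.02 ± 0.68 (limma adjusted p = 1), with 0.17 and -0.13 (25% of the 184 shared these signs), and the latter became 0.06 with median-of-ratios scaling. The average over treatments was -0.26 ± 0.48 (limma adjusted p = 0.99) and the interaction of genotype and TNF 0.55 ± 0.97 (limma adjusted p = 0.988).

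Few miRNAs passed at all. limma called 0 of 184 (0%) for TNF in wild type, for TNF in the knockout, for TNF averaged, for the knockout under each treatment and for the interaction, and 1 (0.543%) for the knockout averaged. An unadjusted p under 0.05 was reached by 12 miRNAs (6.52%) for TNF in wild type, 16 (8.7%) for TNF in the knockout, 26 (14.1%) for TNF averaged, 14 (7.61%) for the knockout averaged, 5 (2.72%) and 4 (2.17%) for the knockout without and with TNF, and 0 (0%) for the interaction. On recovered reads, edgeR called 1 and DESeq2 4 miRNAs for TNF in the knockout, and 3 and 7 for TNF averaged, none of them miR-425. Both called 0 for TNF in wild type, for the knockout under each treatment and for the interaction. miR-155, which rises with inflammatory signals, had 177 and 391 CPM without and with TNF in wild type and 156 and 1075 CPM in the knockout. By RPKM it had 2655 and 8523 in wild type and 2814 and 9177 in the knockout, so the values with TNF were higher in both tables and genotypes.

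The arms of the pair, which the RPKM table does not separate, were used unequally in the CPM table. miR-191 was almost wholly 5p: its 3p arm took 0.0196% to 0.0523% of its reads and had 14, 12, 6 and 20 reads in unstimulated wild type, wild type with TNF, the unstimulated knockout and the knockout with TNF. miR-425 was mostly 5p but gave 16.5% of its reads from the 3p arm in unstimulated wild type (13.7 to 19.6). That share was 2.69% (1.24 to 5.05) in wild type with TNF, 5.83% (3.49 to 9.05) in the unstimulated knockout and 2.65% (1.49 to 4.33) in the knockout with TNF. The unstimulated wild-type library was above the rest, with no overlap of intervals.

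The reads of miR-425-3p were 103, 9, 18 and 15 in the same order, or 321, 16.0, 51.0 and 17.7 CPM. Its ratio of TNF to no TNF was 0.0499 (0.0222 to 0.0985) in wild type and 0.347 (0.163 to 0.729) in the knockout. For miR-425-5p these ratios were 0.356 (0.309 to 0.409) and 0.789 (0.684 to 0.913). The difference for miR-425 in wild type was thus present in both arms and larger in the minor one. Of 46 miRNAs with both arms listed and at least 200 reads in every CPM library, 19 had their highest minor-arm share in the unstimulated wild-type library. In 10 of them, miR-191 and miR-425 included, it was at least 2 times that of any other library. Some of the 10 rest on very small shares, such as miR-146a (0.0230%), miR-146b (0.0291%) and miR-186 (0.155%). For miR-191 the intervals in unstimulated wild type (0.0286% to 0.0878%) and in the unstimulated knockout (0.00925% to 0.0548%) overlapped. The range of the minor-arm share of miR-425, 13.8 percentage points, was the fifth largest of the 46, and that of miR-191 was 0.0328 points, against a median of 0.957.

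**Figure D3:**
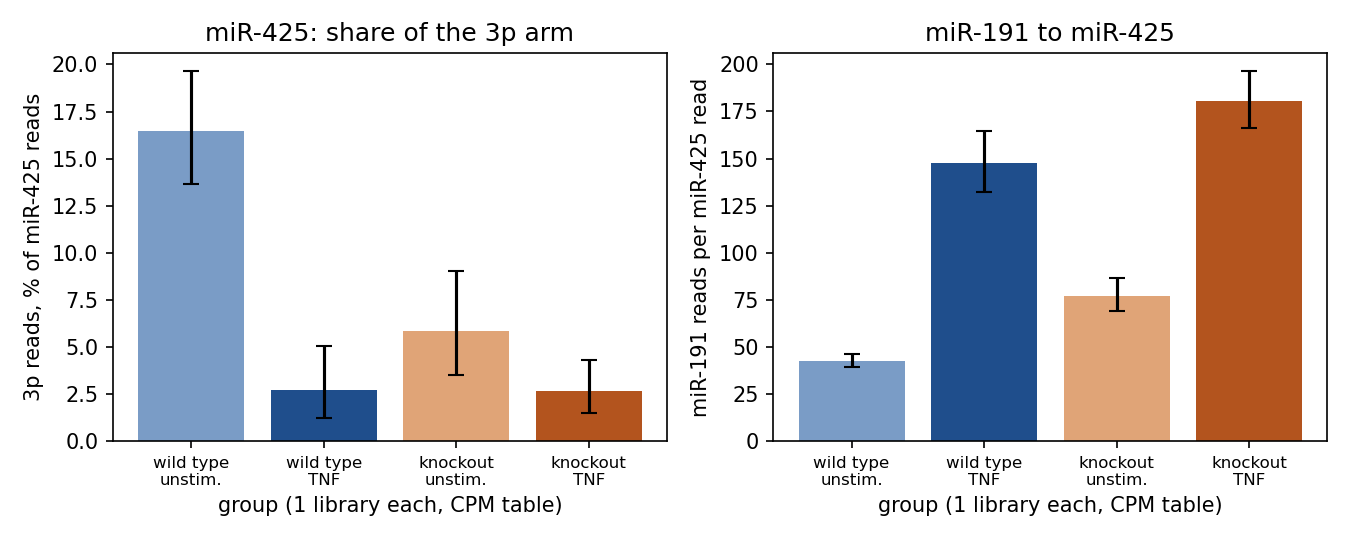
Left, share of miR-425 reads from the 3p arm in %; right, miR-191 reads per miR-425 read, for the 4 libraries of the CPM table with exact 95% counting intervals. The 3p share was 16.5% in unstimulated wild type and 2.65% to 5.83% elsewhere, and the ratio ran from 42.8 to 180.

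The ratio of miR-191 to miR-425 within a library, like that of any pair of miRNAs, does not depend on scaling between libraries. There were 42.8 reads of miR-191 per read of miR-425 in unstimulated wild type (39.5 to 46.4) and 147 with TNF (132 to 165). The knockout had 77.1 (68.9 to 86.5) without stimulation and 180 (166 to 196) with TNF. The ratio was higher with TNF in both genotypes and higher in the knockout under both treatments, in 1 library each. The comparisons for TNF in wild type and for the unstimulated knockout rest on the wild-type library that stood apart. Those for TNF in the knockout and for the knockout with TNF do not use that library. The range of the ratio over the 4 libraries was 4.21-fold, or 2.07 on the log2 scale, with that library at its low end. Among 11 other pairs of single-copy miRNAs within 10000 bases on the same strand and averaging 100 CPM or more, this log2 range was 0.195 to 2.82 with a median of 0.732. Only let-7e with miR-125a had a wider range. miR-17 with miR-20a and miR-25 with miR-106b, which are also cut from shared transcripts, had 0.195 and 0.196. Other pairs overlap in their members and use the same 4 libraries, so these values are a description.

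As reference miRNAs the pair differed. Over the 4 groups miR-191 ranged by 0.84 on the log2 scale in the CPM table, narrower than the median of 1.25 over the 116 miRNAs. miR-425 ranged by 1.71 there, and by 1.18 in the RPKM table against a median of 0.85 over 154 miRNAs. With median-of-ratios scaling the order turned: miR-191 ranged by 1.29 and miR-425 by 1.04, when the median was 1.17.

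A list of 14 other miRNAs often used as references had log2 ranges of 0.239 to 4.75 in the CPM table (median 0.947) and 0.2 to 1.3 in the RPKM table (median 0.615). Of the 14, 5 were narrower than miR-191 and 12 narrower than miR-425 by CPM, and 13 were narrower than miR-425 by RPKM. The narrowest in the CPM table were miR-186 (3498 to 4129 CPM) and miR-320 (894 to 1201 CPM). The widest were miR-16 (14423 to 49162 CPM) and miR-24 (1385 to 37199 CPM), both highest in the unstimulated wild-type library. In limma 0 of the 14 passed in any comparison, with no unadjusted p under 0.05 and a median log2 fold change of -0.01 for TNF averaged beside -0.13 over all 184. For TNF in wild type 11 of the 14 were, like miR-425, lower in the CPM table and higher in the RPKM table (52.7% of all 184), and in the knockout 12 (47.3% of all).

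**Figure D4:**
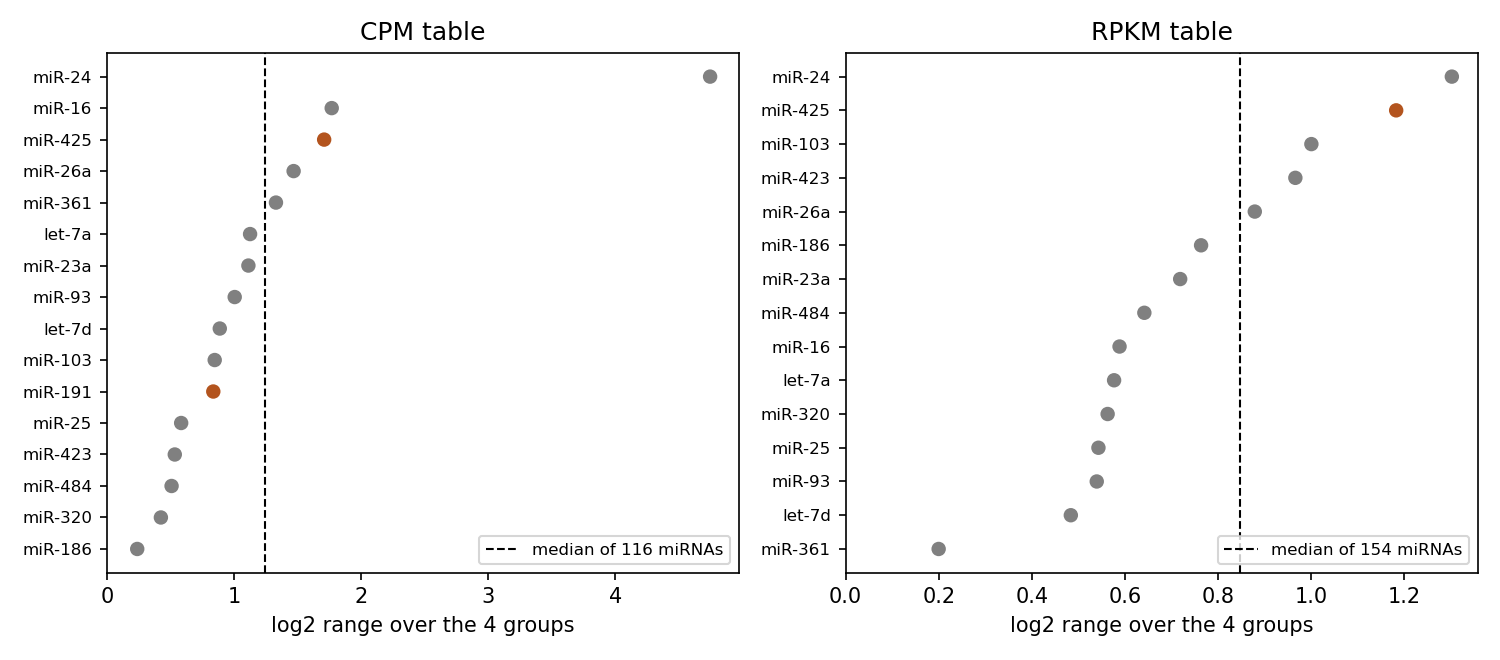
Log2 range over the 4 groups of miR-191 and miR-425 (orange) and of 14 other reference miRNAs (grey) in the CPM and the RPKM table, on separate axes; dashed lines are medians over all miRNAs averaging 100 or more. miR-191 lay at 0.84 in the CPM table and miR-425 at 1.71 and 1.18, right of both medians.

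Since miR-425 was reported to follow NF-kB in human cells, it was set beside 9 miRNAs known to respond to NF-kB or TNF, of which 8 were tested. For TNF averaged over genotypes, 5 of the 8 had higher values in each table and 1 had lower values in each, against 21.7% and 23.9% of all 184. Their median log2 fold change was 0.48 beside -0.13 over all 184. None passed in limma, and 4 of the 8 had an unadjusted p under 0.05, against 14.1% of all 184. miR-425, at 0.01 ± 0.48 with opposite signs, was not among those higher in both tables.

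The patterns most like each member were found by the root mean square difference of centred log2 values. Over the 4 CPM libraries, miR-192 was nearest to miR-191 among 115 miRNAs (difference 0.158, median 0.707), at 442, 391, 408 and 601 CPM in the order used above. It was followed by miR-221, miR-27b, miR-22 and let-7g at 0.293 to 0.323. miR-425 came in place 77 of the 115, with 0.816. Over all 8 libraries, miR-872 was nearest to miR-425 among 94 miRNAs (0.136, median 0.557). It had 445, 153, 204 and 156 CPM and 1061, 1959, 798 and 1734 RPKM, with the same reversal between the tables. miR-99a (0.199), miR-30c (0.223), miR-486a (0.27) and miR-140 (0.281) followed, and in the CPM table all 4 were highest in the unstimulated wild-type library. These miRNAs were chosen for likeness to miR-425 over the same libraries, so the shared peak and reversal follow from the choice. For TNF in wild type, 52.7% of the 184 miRNAs tested had the same reversal.

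miR-486a, a red cell miRNA that shares reads with miR-486b, is the marker of another cell type among these nearest miRNAs. It had 3302 CPM in unstimulated wild type and 1019 to 1354 CPM in the other CPM libraries, beside 1025 to 2179 RPKM. It was the only 1 of 3 erythroid markers listed in the CPM table. The others, miR-451 and miR-144, were listed by RPKM and were near 0 there. miR-451 had 3.84, 3.59, 10.3 and 5.12 RPKM in the order used above, highest in the unstimulated knockout, where miR-486a was lowest, and miR-144 had 1.02 to 1.57 RPKM. The summed CPM of the stromal (90.3 against 21.3 to 70.8), epithelial (277 against 79.0 to 178), lymphoid (37.4 against 1.18 to 3.56), endothelial (24.9 against 8.89 to 11.3) and liver (34.2 against 0 to 3.56) markers was also highest in the unstimulated wild-type library, as was that of the myeloid markers miR-223, miR-142a, miR-155 and miR-146a (42959 against 22908 to 32710). For scale, 1 read equalled 3.11 CPM in unstimulated wild type and 1.78 CPM in wild type with TNF. It equalled 2.83 CPM in the unstimulated knockout and 1.18 CPM in the knockout with TNF. The lymphoid, endothelial and liver sums therefore rest on few reads. No counting intervals are given for them, and their order between libraries was not tested. The stromal sum held miR-143 and miR-199a, the 2 of 4 markers listed, and miR-199a was lowest in unstimulated wild type. Of the myeloid markers only miR-146a was highest there. miR-223 had 2515 CPM there and 4522 CPM in the unstimulated knockout, and miR-142a 13232.6 and 14314.5 CPM. miR-155 had 177 CPM there and 1075 CPM in the knockout with TNF. Thus miR-425 in the CPM table was highest in the library where these marker sums, though not each of their members, were highest. A typical miRNA was also raised in that library, with a median-of-ratios factor of 1.35 against 0.804 to 1.08 in the others. Being highest there is therefore not particular to miR-425 or to these markers, and the share of all miRNAs highest there was not counted.

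By RPKM, some marker sums were also higher with TNF, as miR-425 was. The stromal sum was 17151 RPKM without and 53208 RPKM with TNF in wild type, and 3583 and 11761 RPKM in the knockout. The epithelial sum was 461 and 1103 RPKM in wild type and 422 and 682 RPKM in the knockout. Members of these lists differed. Log2 changes with TNF in wild type and in the knockout were -0.22 and -0.31 for miR-200c, whereas the other epithelial members were higher in both. Of the 4 stromal members in the RPKM sum, miR-143 had 1.64 and 1.76 and miR-199a 0.74 and -0.30. The changes of miR-145 and miR-214 are not given here. The endothelial marker was lower with TNF in both genotypes (275 and 236 RPKM, 398 and 184 RPKM), and the lymphoid marker was higher in wild type (137 and 201 RPKM) and lower in the knockout (354 and 130 RPKM). The myeloid sum, 281616 to 398940 RPKM, was likewise higher with TNF in wild type and lower in the knockout. The part of these markers in the values of miR-425 was not tested in either table. The myeloid markers far exceeded every other marker list in all libraries. The muscle markers were not listed in the CPM table and summed to 1.76 to 3.69 RPKM.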

How the data were processed

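Small RNA libraries were made with the Illumina TruSeq kit per the labels' protocols, and CASAVA 1.8.2 is named in the submitters' processing notes. The aligner, counter and build are not given in the sources used here. The first table holds CPM deposited by the authors for 452 mature miRNAs; 100% of low values were whole reads at a tolerance of 0.1 reads. The second holds deposited values of 371 hairpins, read as RPKM because, times the GENCODE M21 length, 94.6% to 95.1% of low values were whole reads. Column names give the group, and each table's name the replicate number. CPM were summed over arms and RPKM over hairpin copies, and 197 miRNAs were in both, 20 hairpins through RefSeq synonyms.

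limma 3.58.1 (R 4.3.3, lmFit, eBayes with a trend, two-sided) was fitted to log2(value + 1) of 184 miRNAs with a mean of at least 5 over 8 libraries, with 4 groups and the table as a block, and Benjamini-Hochberg adjustment over all 184 in each of 7 comparisons. A fold change on this scale understates that of low miRNAs. The p-values reflect the disagreement between the tables, in which unit, way of counting and library change together, and which may be technical. miR-191, in 1 table, was not tested. Intervals came from scipy 1.17.1: exact Poisson for levels, Clopper-Pearson for shares and, conditional on the sum of reads, for ratios. The block removes, for each miRNA, a difference between the tables that is the same in all groups. A part of the difference in unit that varies between groups stays in. The sum of listed values over its table mean was 0.826 in the unstimulated knockout and 1.24 in wild type with TNF by RPKM. Whether libraries of a table were also paired in culture could not be checked, since unit and replicate number change together. Alternatives were edgeR 4.0.16 and DESeq2 1.42.0 on recovered reads, other scalings, filters and pseudocounts, the 5p arm alone, no block, and each library left out. The limma step was tested on simulated data with less spread than most of these miRNAs had and the same change in both tables. That test therefore does not measure power in these data. Besides the members and lists, the text names the 5 nearest miRNAs of each member, the 2 narrowest and 2 widest reference miRNAs, and miR-155; pairs and arms of other miRNAs were named after their values were seen. Members and lists were chosen with earlier results of these data known.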

Additional observations from a re-analysis of the deposited data

Results flagged for a closer look

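The ratio of knockout to wild type for miR-191 lay on opposite sides of 0 on the log2 scale without and with TNF, at -0.30 and 0.46 in the CPM table. The difference between these values was not tested, since each rests on 1 library per group, and the first changed sign with other scalings.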

How the results depend on the processing

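The fit with the table as a block and those below gave no adjusted p under 0.05 for miR-425. Its log2 fold change for TNF averaged, 0.01, became -0.16 when rescaled to listed miRNAs. Without the replicate block, which leaves the unit difference in the spread, the fold changes stayed and the SE rose to 1.91 for TNF in wild type; the calls for the knockout averaged went from 1 to 0. Leaving out 1 library moved miR-425 from -1.38 to 0.86 for TNF in wild type, -0.32 to 0.90 for TNF in the knockout, -0.55 to 0.57 for TNF averaged, -1.65 to 0.59 and -0.79 to 0.83 for the knockout without and with TNF, -0.82 to 0.30 for the knockout averaged and -0.57 to 1.67 for the interaction. The sign for TNF in wild type turned without unstimulated (0.86) or TNF-treated (0.54) CPM wild type, and for TNF in the knockout without unstimulated (-0.0054) or TNF-treated (-0.32) RPKM knockout. It turned for TNF averaged without any 1 RPKM library (-0.55 to -0.13) and for the unstimulated knockout without unstimulated CPM wild type (0.59). The same held for the knockout with TNF without TNF-treated CPM wild type (-0.79) or RPKM knockout (-0.59), and for the knockout averaged without unstimulated CPM wild type (0.30), TNF-treated CPM knockout (0.049) or TNF-treated RPKM wild type (0.15). The interaction turned without unstimulated (-0.57) or TNF-treated (-0.25) CPM wild type or TNF-treated RPKM knockout (-0.056). Counts of calls then ran from 0 to 16 for TNF in wild type, 0 to 7 in the knockout, 0 to 23 averaged, 0 to 5 and 0 to 0 for the knockout without and with TNF, 0 to 4 for the knockout averaged and 0 to 2 for the interaction. The 16 and the 23 came without unstimulated RPKM wild type. Calls were 1 (edgeR) and 4 (DESeq2) for TNF in the knockout, 3 (edgeR), 7 (DESeq2) and 1 (median-of-ratios) for TNF averaged, and 2 (DESeq2) for the knockout averaged.

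Within the CPM table, median-of-ratios and TMM scaling gave miR-191 log2 ratios of 0.74 and 0.90 for TNF in wild type, 1.26 and 1.28 for TNF in the knockout, 0.027 and 0.10 for the unstimulated knockout and 0.55 and 0.49 for the knockout with TNF. For miR-425 they gave -1.04 and -0.89, 0.032 and 0.056, and -0.82 and -0.75 for the first 3 of these. With the 5p arm alone, miR-425 had -1.49 for TNF in wild type, and 51.2 reads of miR-191-5p stood per read of miR-425-5p in unstimulated wild type. The log2 range over the groups with median-of-ratios scaling was 1.29 for miR-191 and 1.04 (CPM) and 0.84 (RPKM) for miR-425. As percentiles of the miRNAs averaging at least 100 in a table these were 59.1, 40.9 and 56.5, against 25.9, 65.5 and 67.5 unscaled. Among miRNAs averaging at least 20 the unscaled percentiles were 20.7, 60.4 and 62.6. The cause of these shifts beyond the scaling itself was not tested. Depth limits the arms most: miR-191-3p had 6 to 20 reads, and its ratios between libraries were not distinguishable from 1.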
